A study of Homo sapiens with 6 samples.

Results

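Myosins are motor proteins that walk on or pull actin filaments. Tropomyosins and caldesmon lie along those filaments and set which motors reach them, alpha-actinins bundle the filaments, and nebulin runs along the thin filament of skeletal muscle. Epithelial cells build the same machinery from nonmuscle forms: myosin II gives cortical tension and stress fibres, and the unconventional myosins carry vesicles and tether the membrane in microvilli. This gene group was described in the established human colon carcinoma line SW480 after knockdown of gankyrin, the PSMD10 product, an assembly chaperone of the proteasome that also binds the retinoblastoma protein and CDK4.

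The members were genes whose symbol starts with MYL, MYH or MYO followed by a digit, the tropomyosins, the alpha-actinins, and NEB, NEBL, TTN, LMOD1, MYLK, TAGLN, TAGLN2, CNN1, CNN2, CNN3, CALD1 and ACTA2. Each gene was read on its brightest single-gene probe set, and a mean log2 signal above 3.6 over the 6 arrays was required. Of 74 symbols that fit the rule, 47 were measured, out of 14199 genes tested in all. Another 23 were below the limit, 1 (MYO18A) was on a probe set shared by several genes, and 3 were not named on the array in the annotation used here. Just inside the limit were MYL7 at 3.73 and MYO7B at 4.02, and just outside it MYO1G at 3.59 and MYH7 at 3.50.

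The study compared 3 arrays of SW480 cells given a non-targeting control shRNA with 3 arrays of SW480 cells given an shRNA against gankyrin, each for 4 days. The labels do not give the hairpin sequences, how many hairpins were used against gankyrin, or whether replicates were separate cultures. An effect of the hairpin on other transcripts therefore cannot be told apart from loss of gankyrin, and p-values then rest on array-to-array spread alone, which may be technical. A sentence of the series design names NFIL3 as the target. PSMD10 fell 13.4-fold (log2 fold change -3.74 ± 0.08 SE, limma adjusted p = 6.81e-09), and NFIL3 was at -0.26 ± 0.07 (limma adjusted p = 0.0281).

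Of 9 colon epithelial markers, 8 were above 4.84, a low-end value taken as the 95th percentile over 153 probe sets of olfactory receptor, keratin-associated and lens crystallin genes. EPCAM was at 12.20 and KRT20 at 10.40, whereas the intestinal factor CDX2 was at 4.16. Of the 9 genes 3 fell and 1 rose (14.3% and 8.13% of all genes tested). Markers of skeletal muscle, smooth muscle and fibroblasts were mostly below that value, in 6 of 7, 5 of 7 and 7 of 8 cases. Of 5 leukocyte markers 2 were, with PTPRC at 2.65 and LYZ at 12.29. Control replicate 3 stood apart in RNA quality: the 3′ minus 5′ log2 signal of the ACTB control probe sets was 1.82 there and 0.43 to 0.53 on the other 5 arrays, and for GAPDH it was 0.56 against -0.11 to 0.00. That array gave the highest control value for 27 of the 47 genes, and for 56.0% of all genes tested. The part of RNA quality in the results was not tested. Where leaving this array out makes a call or moves a called value by over 1.5 times, the value without it is given.

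The large change in this group was a rise of the nebulin gene NEB, and the rest was a set of small differences. NEB rose 3.42-fold, while 8 genes fell, by 1.16- to 1.47-fold: the class I myosins MYO1D and MYO1C, the vesicle motor MYO5B, the alpha-actinin ACTN1, the myosin light chains MYL6, MYL12A and MYL12B, and TAGLN2. CALD1 rose 1.16-fold. MYH4 also passed as a rise, from a mean of 3.85 to 4.41, with all 6 values below the low-end value of 4.84, so that its fold is not that of a signal above background. The remaining 36 genes did not pass, with log2 fold changes between -0.30 and 0.20. In all 11 of 47 genes passed (limma, Benjamini-Hochberg adjusted p under 0.05 over all genes), or 23.4%, beside 22.5% of all genes tested.

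The share of members that passed was thus close to the background, in each direction as well. Rises made up 6.38% of members and 8.13% of all genes, and falls 17.0% of members and 14.3% of all genes. Knockdown and control values did not overlap for 21 of the 47 genes, or 44.7%, beside 40.3% of all genes. Members had a median log2 fold change of -0.08, against -0.02 for the whole set of genes. Centring each array on its median over the genes tested, an alternative chosen after seeing the data, moved the median of all genes to 0.08 and that of the members to 0.02. The members that passed were then 4 higher and 4 lower, and of all calls 60.7% were higher against 36.2% on the deposited scale. In bulk RNA from a culture, fewer cells expressing a gene and less RNA per cell cannot be told apart.

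**Figure D1:**
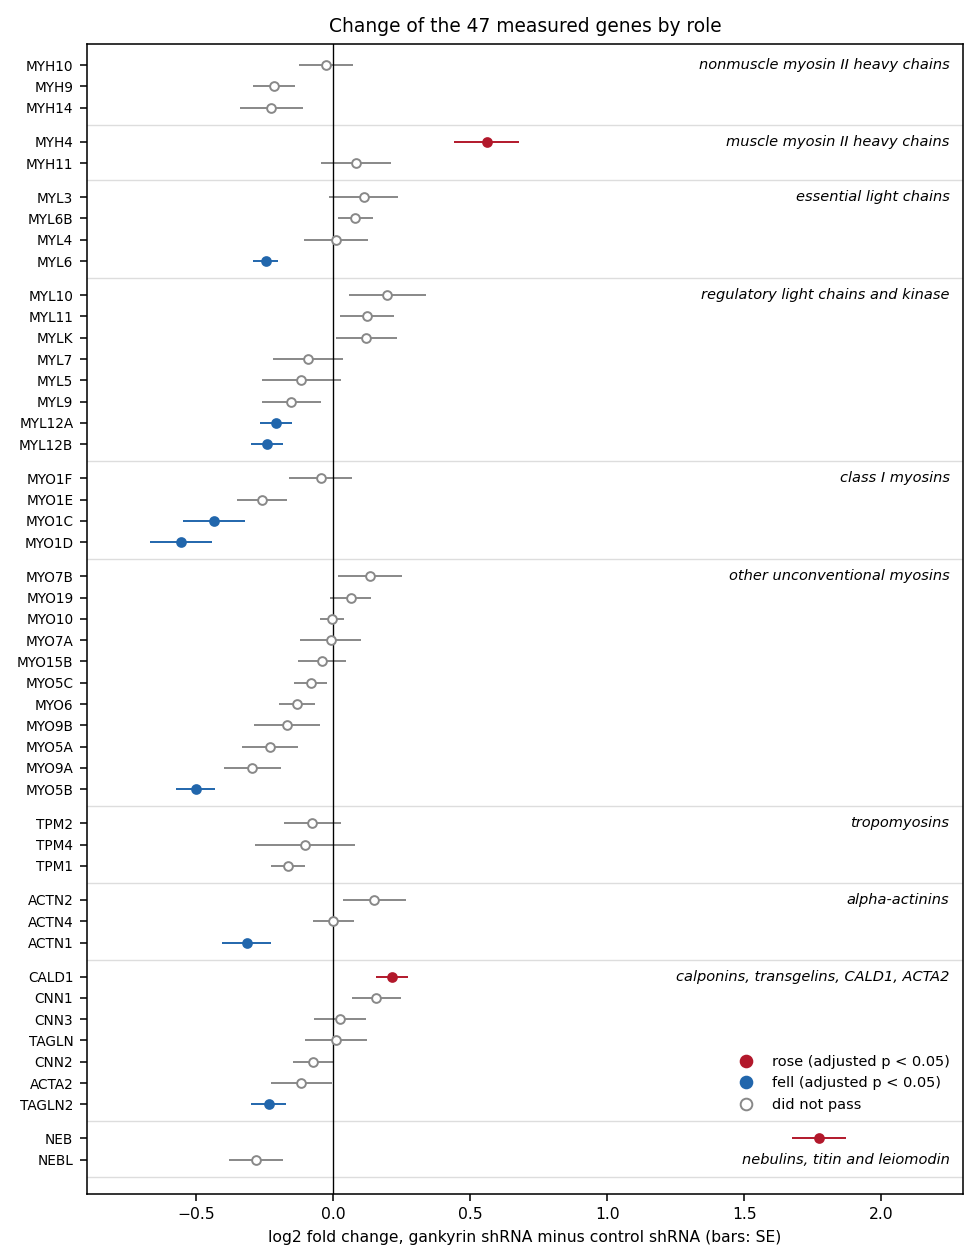
Log2 fold change (x axis, gankyrin shRNA minus control shRNA, bars are the SE from limma, n = 3 arrays per group) of the 47 measured genes, ordered within roles. NEB at 1.77 lies apart from all others, which lie between -0.56 and 0.56; filled points passed an adjusted p of 0.05.

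NEB encodes nebulin, the giant actin-binding protein that spans the thin filament of skeletal muscle. It was read at a log2 signal of 5.08, 4.86 and 5.06 with the control shRNA and of 6.80, 6.84 and 6.68 with the gankyrin shRNA, in the order of replicates 1 to 3, as in all such lists here. Every knockdown array was thus at least 1.6 above every control array, and the control level was just over the low-end value of 4.84. The log2 fold change was 1.77 ± 0.10 SE (limma adjusted p = 4.59e-06), rank 2 among the rises of the 14199 genes. The call rests on a single probe set, which passed under all 16 alternative settings with log2 fold changes from 1.70 to 1.87. In the RefSeq annotation NEB overlaps the end of another gene, RIF1, which acts in DNA repair and replication timing. RIF1 was at 7.88, 7.88 and 7.69 in control and 7.92, 7.98 and 8.10 in knockdown arrays, a difference of 0.18 ± 0.08 that did not pass (limma adjusted p = 0.144).

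No tested skeletal muscle marker passed beside NEB. The 7 markers had a summed level of 7.05 to 7.21 on the log2 scale in control and 7.19 to 7.23 in knockdown arrays. Of the 5 that were tested, 0 passed in limma, beside 22.5% of all genes. At an unadjusted p under 0.05 was 1, MYOD1, and at least 22.5% of all genes reach that level too. MYOD1, a transcription factor that sets the skeletal muscle lineage, was at 4.40, 4.46 and 4.17 in control and 4.65, 4.68 and 4.65 in knockdown arrays, a difference of 0.32 ± 0.10 SE (limma adjusted p = 0.0538). All of these values lie below the low-end value of 4.84. The defining markers CKM, ACTA1 and MYOG had means of 3.24, 3.01 and 4.32 over the 6 arrays. TTN and LMOD1, which belong to the same role list as NEB, were below the limit, at 3.30 and 3.17.

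The promoter of NEB is shown because NEB had the largest change among these genes. The sequence is from RefSeq on GRCh38.p14, chr2:151734477-151734726, minus strand, the 250 bases before the annotated start, with matches to the E-box letters CANNTG (both strands) in capitals. E-boxes are sites read by basic helix-loop-helix factors such as MYOD1, and this motif was chosen after the values of NEB had been seen.
NEB: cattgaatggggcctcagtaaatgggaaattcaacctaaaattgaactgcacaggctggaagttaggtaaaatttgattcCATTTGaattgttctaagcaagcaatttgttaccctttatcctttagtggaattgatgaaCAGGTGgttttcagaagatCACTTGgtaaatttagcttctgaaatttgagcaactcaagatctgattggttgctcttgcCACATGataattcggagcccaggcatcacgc
It holds 4 E-box matches, where the median over all promoters of the table is 1, and 68.7% of 35116 promoters hold at least 1. Its GC content was 39.2%, against a median of 58.0% over all promoters and 64.8% over promoters of these genes. No match to the CArG box, to GGAATG or to TGANTCA was found in the 300 bases from 250 before to 50 after the start. A match is a description of the letters and not of a bound site.

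NEBL encodes nebulette, the nebulin family protein of cardiac Z-discs that also has a shorter form at focal adhesions in other cells. Its brightest probe set was at 9.35, 9.39 and 9.07 in control and 8.96, 9.15 and 8.85 in knockdown arrays. The groups overlapped, because control replicate 3 lay below knockdown replicate 2. The log2 fold change of -0.28 ± 0.10 SE did not pass (limma adjusted p = 0.0676). Without control replicate 3 it was -0.38 (limma adjusted p = 0.000731). A second NEBL probe set of nearly the same brightness was at 9.18, 9.31 and 9.31 in control and 8.77, 8.92 and 8.59 in knockdown arrays, and it fell by 0.51 ± 0.09 on the log2 scale (limma over 27004 probe sets, adjusted p = 0.0157). NEB rose and the bright NEBL probe sets were lower. Within each array the NEBL minus NEB difference was lower by 2.06 ± 0.16 (SE, n = 3 arrays per group) in the knockdown, with no overlap between groups (exact permutation test, two-sided p = 0.1, the smallest that 3 arrays against 3 allow, and 0.25 adjusted over the 10 pairs compared).

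Among the muscle myosin heavy chains, 2 of 12 genes were measured and 1 of the 2 passed, beside 22.5% of all genes. MYH4, a heavy chain of fast skeletal muscle fibres, was at 3.90, 3.67 and 3.97 in control and 4.31, 4.34 and 4.57 in knockdown arrays. The groups did not overlap, and all 6 values were below the low-end value. MYH4 rose by 0.56 ± 0.12 SE on the log2 scale (limma adjusted p = 0.00817), and it passed under the 15 alternatives in which it was measured. In RefSeq the gene overlaps the antisense gene MYHAS, and MYH1, MYH2, MYH3, MYH8 and MYH13, other skeletal myosin genes on the array, had means of 2.15, 2.40, 2.52, 2.19 and 3.30, below the limit. MYH11, the smooth muscle heavy chain, was at 4.61 ± 0.25 (SD, n = 3) in control and 4.69 ± 0.06 (SD, n = 3) in knockdown arrays, a difference of 0.08 ± 0.13 SE.

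**Figure D2:**
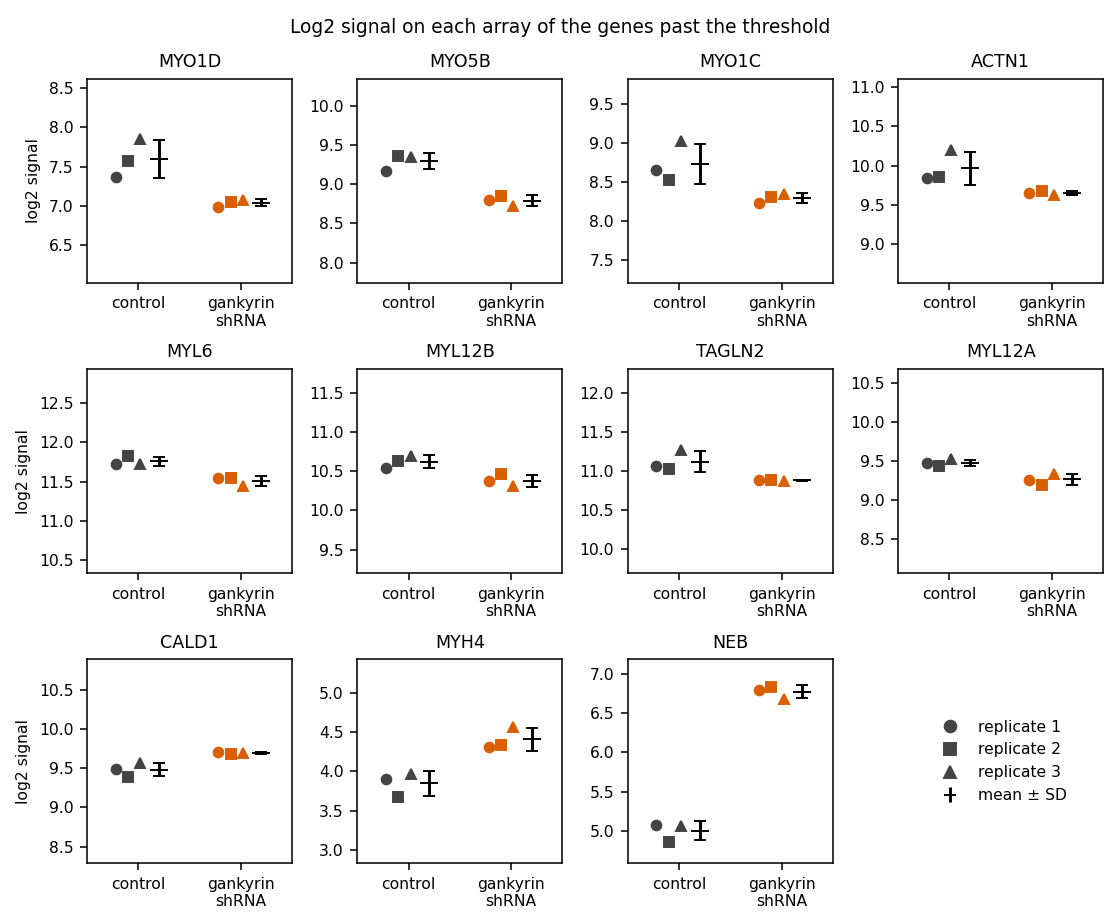
Log2 signal (y axis) on each of the 6 arrays for the 11 genes past the threshold, 1 panel per gene, each panel over the same span of log2 units. Points are arrays with their replicate number as the shape, and the bar is the mean ± SD of 3 arrays; NEB goes from 5.0 to 6.77, the other genes move by at most 0.56, and the 2 groups do not overlap in any panel.

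The class I myosins, single-headed motors that link actin to membranes and hold the microvillus core to its membrane, had 4 of 8 members measured, of which 2 fell and 0 rose, beside 14.3% and 8.13% of all genes. Their median log2 fold change was -0.35, beside -0.02 over all genes tested. MYO1D was at 7.37, 7.57 and 7.85 in control and 6.99, 7.05 and 7.08 in knockdown arrays. The groups did not overlap, and control replicate 3 was the highest array. MYO1D fell 1.47-fold (log2 fold change -0.56 ± 0.11 SE, limma adjusted p = 0.00695), on 1 probe set and under all 16 alternatives. MYO1A, the brush border myosin I of mature enterocytes, was below the limit at 3.17.

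MYO1C, a class I motor of glucose transporter vesicles and the cell cortex, was at 8.65, 8.53 and 9.02 in control and 8.23, 8.31 and 8.35 in knockdown arrays. It fell 1.35-fold (log2 fold change -0.44 ± 0.11 SE, limma adjusted p = 0.0205), and control replicate 3 was its highest value. All 3 of its probe sets were lower without overlap, at -0.44, -0.37 and -0.33, although 1 of them passed among all probe sets. Leaving out knockdown replicate 1, 2 or 3 ended the call, with log2 fold changes of -0.40 to -0.46 and limma adjusted p from 0.0601 to 0.0863. Without control replicate 3 the log2 fold change of MYO1C was smaller, at -0.29 (limma adjusted p = 0.00212). MYO1E was at 6.07, 6.07 and 6.00 in control and 5.73, 5.91 and 5.72 in knockdown arrays, a difference of -0.26 ± 0.09 SE (limma adjusted p = 0.0673), and without control replicate 3 it was -0.28 (limma adjusted p = 0.0276).

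Of the other unconventional myosins, 11 of 17 were measured, with a median log2 fold change of -0.08. Of the 11, 1 fell (9.09%) and 0 rose, beside 14.3% and 8.13% of all genes. The gene that fell was MYO5B, the class V motor that moves recycling endosomes to the apical surface of enterocytes. It was at 9.17, 9.36 and 9.35 in control and 8.80, 8.85 and 8.72 in knockdown arrays, 1.42-fold lower (log2 fold change -0.50 ± 0.07 SE, limma adjusted p = 0.0011). The lowest control array was 0.32 above the highest knockdown array. A second, dimmer MYO5B probe set went from 6.98 to 6.5, a difference of -0.48 ± 0.09 SE, and both probe sets fell on the probe set fit (limma adjusted p = 0.00795 and 0.0203). The call stood under all 16 alternatives.

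The class V relatives had smaller differences. MYO5A, which carries melanosomes and other vesicles, was at 5.82, 5.90 and 6.07 in control and 5.81, 5.70 and 5.59 in knockdown arrays (-0.23 ± 0.10 SE, limma adjusted p = 0.139). MYO5C was at -0.08 ± 0.06 SE (limma adjusted p = 0.359). Within each array MYO5B minus MYO5A, on the brightest probe sets, was lower by 0.27 ± 0.07 SE in the knockdown, without overlap (exact permutation test, two-sided p = 0.1, and 0.25 adjusted over the 10 pairs). MYO9A, a class IX myosin, was at -0.30 ± 0.10 SE (limma adjusted p = 0.0672). Its values were 6.29, 6.33 and 6.52 in control and 6.22, 6.09 and 5.94 in knockdown arrays. A MYO9A probe set of nearly the same brightness was at -0.03 ± 0.11 SE with overlapping groups. A dim MYO9A probe set with a mean of 3.66 was at -0.44 ± 0.15 SE without overlap.

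The brightest unconventional myosin was MYO10, the motor found at the tips of filopodia. Its brightest probe set was at 10.93, 10.93 and 10.99 in control and 10.90, 10.95 and 10.98 in knockdown arrays, a difference of -0.01 ± 0.04 SE. MYO6, which moves towards the minus end of actin at the base of microvilli, was at 9.12, 9.17 and 9.32 in control and 9.06, 9.11 and 9.04 in knockdown arrays (-0.13 ± 0.07 SE, limma adjusted p = 0.186). Both genes also had a dimmer probe set that rose. That of MYO10 was at 7.02, 6.88 and 6.77 in control and 7.41, 7.45 and 7.44 in knockdown arrays (0.54 ± 0.09 SE, limma over all probe sets, adjusted p = 0.0105). That of MYO6 was at 7.73, 7.74 and 7.48 in control and 8.05, 8.0 and 7.94 in knockdown arrays (0.35 ± 0.09 SE, limma over all probe sets, adjusted p = 0.0488). Where these probe sets lie in the transcripts was not used here.

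Nonmuscle myosin II is a hexamer of paired heavy chains, essential light chains and regulatory light chains. Its heavy chain genes MYH9, MYH10 and MYH14 were all measured. In limma 0 of 3 passed, beside 22.5% of all genes, with 1 at an unadjusted p under 0.05, which at least 22.5% of all genes reach. MYH9 was at 7.93, 7.98 and 7.90 in control and 7.78, 7.77 and 7.61 in knockdown arrays. The groups did not overlap, yet the difference of -0.22 ± 0.08 SE missed the threshold (limma adjusted p = 0.0647). Without control replicate 3 it was -0.24 (limma adjusted p = 0.0175). MYH10 was at 7.35, 7.19 and 7.49 in control and 7.4, 7.19 and 7.36 in knockdown arrays, a difference of -0.03 ± 0.10 SE. MYH14 was at 7.07, 7.05 and 7.47 in control and 6.99, 7.02 and 6.90 in knockdown arrays (-0.23 ± 0.11 SE, limma adjusted p = 0.19), and without control replicate 3 the difference was -0.09 (limma adjusted p = 0.403).

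The light chains that go with these heavy chains were among the brightest genes of the group, and 3 of them fell by small amounts. Of 4 essential light chains measured 1 fell, and of 8 regulatory light chains and their kinase 2 fell. That is 25% of each list, beside 14.3% of all genes, and 0 rose, beside 8.13%. MYL6, the essential light chain of nonmuscle and smooth muscle myosin II, was the brightest gene of all 47, at 11.73, 11.82 and 11.72 in control and 11.54, 11.55 and 11.44 in knockdown arrays. It fell 1.19-fold (log2 fold change -0.25 ± 0.05 SE, limma adjusted p = 0.00434). The regulatory light chain MYL12B was at 10.54, 10.63 and 10.70 in control and 10.37, 10.46 and 10.31 in knockdown arrays, and fell 1.18-fold (-0.24 ± 0.06 SE, limma adjusted p = 0.0153). MYL12A, a near-identical neighbour gene, was at 9.47, 9.44 and 9.52 in control and 9.26, 9.20 and 9.34 in knockdown arrays, and fell 1.16-fold (-0.21 ± 0.06 SE, limma adjusted p = 0.0301). Since their sequences are so alike, signal of the one may reach probe sets of the other, and these calls are uncertain as to which gene changed.

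These small falls did not all stand. Centring each array on its median over the genes tested ended the calls of MYL6, MYL12B and MYL12A, at -0.15, -0.14 and -0.11 (limma adjusted p = 0.118, 0.0732 and 0.202). The call of MYL12B did not outlast leaving out knockdown replicate 1 or 3 (limma adjusted p = 0.0618 and 0.0774), and that of MYL12A without control replicate 1 or 2 or knockdown replicate 1 or 2 (limma adjusted p from 0.0541 to 0.132). A second, dim MYL6 probe set with a mean of 5.79 was at 0.17 ± 0.10 SE. Of the other light chains, MYL6B, an essential light chain expressed at 8.23, 8.27 and 8.30 in control and 8.39, 8.31 and 8.34 in knockdown arrays, was at 0.08 ± 0.06 SE. With the recentring it was at 0.18 (limma adjusted p = 0.0494). MYL6B minus MYL6 was higher in every knockdown array than in every control array, by 0.33 ± 0.06 SE (exact permutation test, two-sided p = 0.1, and 0.25 adjusted over the 10 pairs).

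The muscle-type light chains and the kinase were dim. In limma 0 of them passed, beside 22.5% of all genes, and 0 had an unadjusted p under 0.05, which at least 22.5% of all genes reach. MYL9, the regulatory light chain typical of smooth muscle, was at 4.14 ± 0.14 (SD, n = 3) in control and 3.98 ± 0.09 (SD, n = 3) in knockdown arrays on a single probe set. MYLK, the light chain kinase, was at 4.18 ± 0.13 (SD, n = 3) and 4.3 ± 0.13 (SD, n = 3). MYL3, MYL4, MYL5, MYL7, MYL10 and MYL11 had log2 fold changes between -0.12 and 0.20.

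Tropomyosins are coiled-coil proteins that run along the actin filament, and 3 of 4 were measured. In limma 0 of the 3 passed, beside 22.5% of all genes. An unadjusted p under 0.05, which at least 22.5% of all genes reach, was found for 1. TPM1 was at 10.20, 10.27 and 10.41 in control and 10.06, 10.16 and 10.16 in knockdown arrays, 0.04 apart at the nearest values. The difference was -0.17 ± 0.06 SE (limma adjusted p = 0.0848), without control replicate 1 it was -0.21 (limma adjusted p = 0.0453), and without control replicate 3 it was -0.11 (limma adjusted p = 0.111). The 5 probe sets of TPM1 ran from -0.21 to 0.15, with 2 above 0 and 3 below. TPM2 was at 8.21, 8.39 and 8.66 in control and 8.27, 8.38 and 8.38 in knockdown arrays (-0.08 ± 0.10 SE). TPM4 had the widest spread of these genes, at 8.06, 8.14 and 7.45 in control and 7.87, 8.0 and 7.47 in knockdown arrays (-0.10 ± 0.18 SE). The low values were replicate 3 of both groups, and without control replicate 3 alone the difference was -0.32 (limma adjusted p = 0.0391).

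The alpha-actinins cross-link actin filaments, ACTN1 and ACTN4 in nonmuscle cells and ACTN2 and ACTN3 in muscle. ACTN1 was at 9.84, 9.85 and 10.20 in control and 9.65, 9.67 and 9.62 in knockdown arrays. Every knockdown array lay below every control array, and control replicate 3 was the highest. ACTN1 fell 1.25-fold (log2 fold change -0.32 ± 0.09 SE, limma adjusted p = 0.0298), and leaving out any 1 knockdown array ended the call (limma adjusted p from 0.0837 to 0.108). So did taking the mean of its 4 probe sets (-0.17, limma adjusted p = 0.269). Without control replicate 3 the log2 fold change was -0.20 (limma adjusted p = 0.00444). ACTN4 was at 9.10, 9.07 and 9.33 in control and 9.19, 9.18 and 9.13 in knockdown arrays, the same mean of 9.17 in both groups. Within each array ACTN4 minus ACTN1 was higher by 0.32 ± 0.04 SE in the knockdown, without overlap (exact permutation test, two-sided p = 0.1, and 0.25 adjusted over the 10 pairs). ACTN2 was at 0.15 ± 0.11 SE, and ACTN3 was below the limit at 3.30.

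Calponins, transgelins and caldesmon bind actin and are often used as markers of smooth muscle, though several are made in epithelial lines as well. Of the 7 genes of this kind, with smooth muscle actin, 1 rose and 1 fell, 14.3% each, beside 8.13% and 14.3% of all genes. TAGLN2, the transgelin of nonmuscle cells, was at 11.06, 11.02 and 11.27 in control and 10.89, 10.88 and 10.87 in knockdown arrays, and fell 1.18-fold (log2 fold change -0.24 ± 0.06 SE, limma adjusted p = 0.0229). A second bright TAGLN2 probe set with a mean of 10.39 was at 0.06 ± 0.09 SE. Any 1 knockdown array left out ended the call (limma adjusted p from 0.0713 to 0.0858), as did recentring (-0.14, limma adjusted p = 0.0697).

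CALD1 encodes caldesmon, which holds back myosin on actin. It was at 9.49, 9.39 and 9.56 in control and 9.71, 9.68 and 9.69 in knockdown arrays, and rose 1.16-fold (log2 fold change 0.21 ± 0.06 SE, limma adjusted p = 0.0274). Of its 9 probe sets 7 were above 0. The groups did not overlap in 5, all of them higher and 0 lower. Over all single-gene probe sets 37.4% did not overlap in either direction, and over all genes 15.7% were higher without overlap. Among all probe sets 1 of CALD1 passed (0.37 ± 0.09 SE, limma adjusted p = 0.035). Without control replicate 2, or without knockdown replicate 1, 2 or 3, the call on the brightest probe set was lost (limma adjusted p from 0.0853 to 0.102). Centring each array on its median over all probe sets also ended the call (0.20, limma adjusted p = 0.07). So did the mean of its probe sets and a fit without the intensity trend, so that 7 of the 16 alternatives lost it. CNN1, CNN2, CNN3, TAGLN and ACTA2 had log2 fold changes of 0.16, -0.07, 0.02, 0.01 and -0.12, none of which passed. A second CNN3 probe set of similar brightness was at 0.21 ± 0.08 SE without overlap and did not pass (limma over all probe sets, adjusted p = 0.128). The summed level of 7 smooth muscle markers was 8.05 to 8.25 on the log2 scale in control and 7.94 to 8.02 in knockdown arrays. Of the 5 that were tested, 1 (SMTN) fell and 0 rose, beside 14.3% and 8.13% of all genes. SMTN, the brightest of them, was at -0.33 ± 0.10 SE (limma adjusted p = 0.0384). Every other marker had a higher mean in the knockdown, by 0.04 to 0.16, and none of those passed. MYOCD had a mean of 2.68. The part of this summed level in these results was not tested.

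The calls are set beside brightness as a description, since members differ widely in signal. Of 12 genes with a mean log2 signal of 9 or more, 6 fell and 1 rose, with a median log2 fold change of -0.22. Over the 2539 genes of that brightness, 17.1% fell and 16.4% rose. Of 13 genes between 6 and 9, 2 fell and 0 rose, where 19.0% of all genes in that range fell and 8.92% rose. Of 22 genes under 6, 2 rose and 0 fell, where 7.53% fell and 3.26% rose. Means over the 6 arrays ran from 3.73 to 11.63, and 9 of the 47 genes were under the low-end value.

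Many of these genes were read by several probe sets, and those often differed in the sign of their change. The 47 genes had 110 probe sets past the filter, 22 genes with 1 and 25 with more. In 18 of those 25 genes, probe sets lay on both sides of 0. For some this was by less than the SE, as for TAGLN, from -0.01 to 0.04. No gene had both a probe set called higher and a probe set called lower. The share with both signs over all genes was not computed. Tested among all 27004 single-gene probe sets, 6 of the 110 rose and 8 fell, beside 4.66% and 7.12% of all. For 7 genes a probe set other than the brightest passed. Of the 11 genes called above, 6 passed on their brightest probe set in this wider test. The brightest probe sets of ACTN1, CALD1, MYL12A, MYO1C and TAGLN2 did not (limma adjusted p from 0.0552 to 0.0792). The widest spans, picked after their values had been seen, were those of NEBL and CALD1.

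NEBL shows how far the probe sets of a gene could lie apart. Its 6 probe sets ran from -0.69 to 0.21, and 2 of them fell. The lowest was at 5.69, 5.64 and 5.84 in control and 4.95, 5.14 and 5.02 in knockdown arrays, and fell by 0.69 ± 0.10 on the log2 scale (limma over all probe sets, adjusted p = 0.00832). The highest was at 6.88, 7.0 and 5.87 in control and 6.84, 6.89 and 6.65 in knockdown arrays, so that its difference of 0.21 ± 0.28 SE came with a low control replicate 3. A CALD1 probe set had the same shape, at 7.35, 7.39 and 6.14 in control and 7.65, 7.75 and 7.81 in knockdown arrays (0.78 ± 0.31 SE, limma adjusted p = 0.149). MYH14 had 6 probe sets from -0.50 to 0.34, of which the 4 brighter ones were below 0. A dim MYH14 probe set with a mean of 3.97 rose by 0.34 ± 0.09 on the log2 scale (limma over all probe sets, adjusted p = 0.0431).

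**Figure D3:**
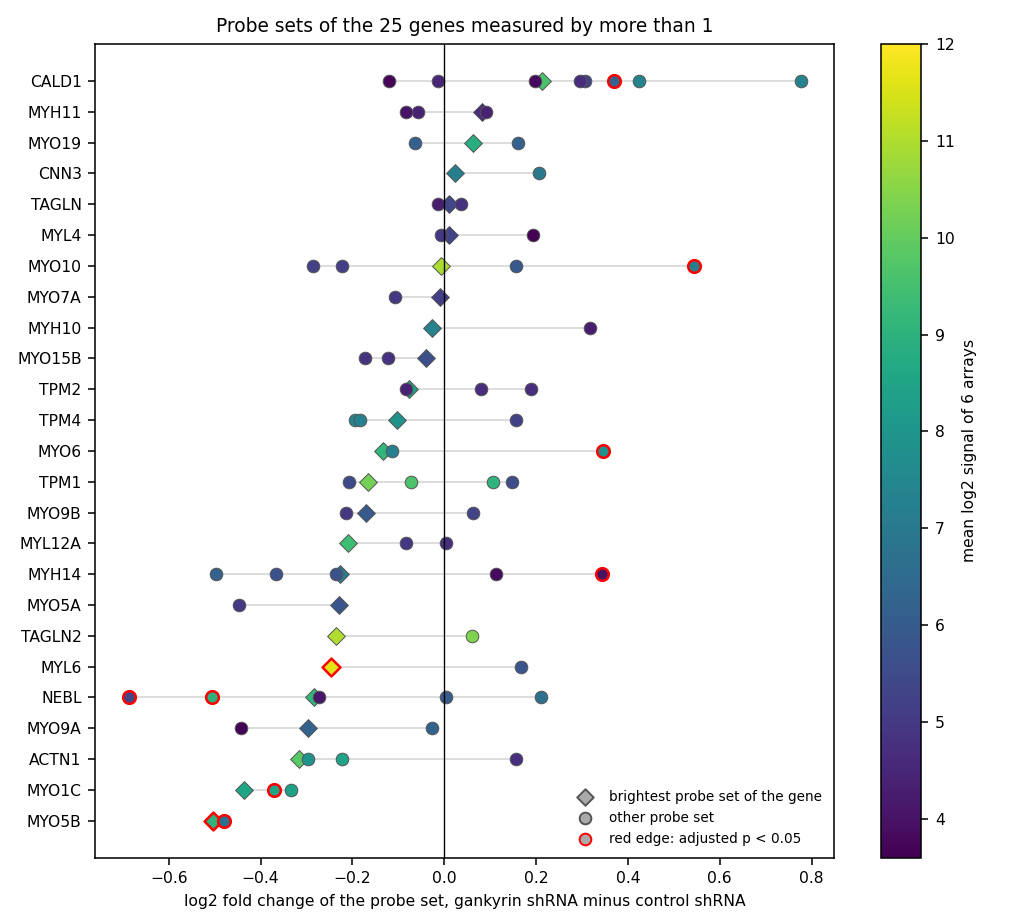
Log2 fold change (x axis, gankyrin shRNA minus control shRNA) of each probe set of the 25 genes with more than 1, a line per gene, coloured by mean log2 signal of the 6 arrays. Diamonds are the brightest probe set of each gene, and red edges mark an adjusted p under 0.05 among 27004 probe sets. The probe sets of 18 genes lie on both sides of 0, but no gene has red edges on both sides.

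Closely related genes were compared within arrays for 10 of 12 pairs, and the groups did not overlap in 4, which are given above. CNN3 minus CNN2 was higher by 0.10 ± 0.04 SE in the knockdown, with replicate 3 of both groups at the same value (exact permutation test, two-sided p = 0.2, and 0.4 adjusted over the pairs). No pair reached an adjusted p of 0.05, which 3 arrays against 3 cannot give. For the other 5 pairs the difference lay between -0.25 and 0.19 and the groups overlapped. Those were MYH10 and MYH14 against MYH9, MYL9 against MYL12B, TPM2 against TPM1, and TAGLN2 against TAGLN.

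Many cytoskeletal genes are targets of serum response factor, which reads the CArG box, so the promoters of the group were searched for it. In the RefSeq promoter table (GRCh38.p14, 300 bases from 250 before to 50 after the start) 41 of the 47 genes were found, with 69 promoters. A CArG box on either strand was in promoters of 6 of the 41 genes, or 14.6%, beside 1.6% of 27305 genes. Since these genes had more promoters per gene than all genes, shares by promoter are given as well. By promoter the CArG box was in 6 of 69, or 8.7%, beside 1.29% of 35116. The match and its surroundings are shown for these 6 genes because they are the members whose promoter holds the letters, with the box in capitals, at chr3:123620623-123620652 (minus), chr7:44141374-44141403 (minus), chr14:68977718-68977747 (minus), chr15:59372883-59372912 (minus), chr19:1026509-1026538 (plus) and chr19:16067355-16067384 (plus) in the order given.
MYLK: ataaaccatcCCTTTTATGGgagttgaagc
MYL7: ctgttcctctCCTTATTTGGaccttcaggt
ACTN1: acgctcatgtCCAAAAATGGtaacattcat
MYO1E: gctgagttctCCATTTATGGacagattgcc
CNN2: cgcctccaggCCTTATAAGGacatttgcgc
TPM4: aatcctaggtCCAAATAAGGcgagggctgc
Of the 6 genes ACTN1 fell, at -0.32, and the others were at 0.12 for MYLK, -0.09 for MYL7, -0.26 for MYO1E, -0.07 for CNN2 and -0.10 for TPM4. GGAATG, the letters read by TEAD factors, was in promoters of 11 of the 41 genes, or 26.8%, beside 16.7% of all genes. By promoter the contrast was smaller, at 13 of 69, or 18.8%, beside 4928 of 35116. TGANTCA, read by AP-1, was in promoters of 6 of the 41 genes, or 14.6%, beside 9.37% of all genes. By promoter it was in 7 of 69, or 10.1%, beside 7.71%. The 6 genes with TGANTCA were ACTN4, CALD1, MYL6B, MYO1C, NEBL and TAGLN2, of which MYO1C and TAGLN2 fell and CALD1 rose.

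The factors and kinases around this machinery showed few changes of more than a small size. Of serum response factor, its partners and their regulators, 7 of 8 were measured, of which 1 fell and 0 rose, a share of 14.3% that equals the 14.3% over all genes, with a median log2 fold change of -0.11. SRF itself was at -0.04 ± 0.09 SE, and FHL2, the brightest gene that did not pass, at 0.09 ± 0.06 SE. ELK1, a ternary complex factor, fell 1.19-fold (-0.25 ± 0.08 SE, limma adjusted p = 0.0477). That call was lost without control replicate 1 or any 1 knockdown array (limma adjusted p from 0.0653 to 0.153), and the mean of its probe sets was at 0.03.

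Of a broad list of genes around myosin II phosphorylation, not all of which act on myosin II itself, 15 of 20 were measured. Of these 4, or 26.7%, fell and 0 rose (14.3% and 8.13% of all genes), with a median of -0.15. ROCK2, a kinase that phosphorylates the regulatory light chain and its phosphatase, was at 10.16, 10.19 and 10.22 in control and 9.73, 9.79 and 9.77 in knockdown arrays. It fell 1.34-fold (-0.43 ± 0.05 SE, limma adjusted p = 0.000362), although with the mean of its probe sets it was at -0.19 (limma adjusted p = 0.282). ROCK1, named after its value was seen, was at 0.03 ± 0.07 SE. DAPK1 and STK10, kinases, and RHOB, a small GTPase, fell by 0.28, 0.25 and 0.36 on the log2 scale (limma adjusted p = 0.0249, 0.0365 and 0.0466). Those 3 calls were lost without control replicate 2 or knockdown replicate 1 (limma adjusted p from 0.0519 to 0.119). DAPK1 and STK10 lost theirs without knockdown replicate 2 or 3 as well (limma adjusted p from 0.0895 to 0.124), and without knockdown replicate 3 RHOB was at -0.23 (limma adjusted p = 0.157). STK10 also lost its call with each array centred on its median over all probe sets and with quantile normalization (limma adjusted p = 0.0507 and 0.0548). RHOA was at 0.09 ± 0.05 SE (limma adjusted p = 0.214).

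Of actins and proteins that assemble, sever or cap filaments, 20 of 26 were measured, of which 5, or 25%, fell and 0 rose (14.3% and 8.13% of all genes), with a median of -0.10. GSN, the severing protein gelsolin, was at 10.23, 10.36 and 10.48 in control and 9.75, 9.74 and 9.64 in knockdown arrays, and fell 1.57-fold (-0.65 ± 0.07 SE, limma adjusted p = 0.000223). With the mean of its probe sets it was at -0.15 (limma adjusted p = 0.715). The formin FHOD1 was at 6.16, 6.30 and 7.04 in control and 5.81, 5.85 and 5.55 in knockdown arrays, and fell by 0.76 ± 0.20 on the log2 scale (limma adjusted p = 0.0216). Without control replicate 3 it was at -0.49 (limma adjusted p = 0.00169). The formin DIAPH1 and the cofilin kinase LIMK1 fell by 0.25 and 0.46 (limma adjusted p = 0.0295 and 0.0323). Calls of these 3 genes were lost without any 1 knockdown array (limma adjusted p from 0.0567 to 0.13). ACTB, the main nonmuscle actin, was at -0.08 ± 0.04 SE (limma adjusted p = 0.2).

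Of Z-disc, stress fibre and LIM proteins, many of which bind alpha-actinin, 18 of 25 were measured, of which 5, or 27.8%, fell and 0 rose (14.3% and 8.13% of all genes), with a median of 0.02. CSRP2, a LIM protein that binds alpha-actinin, was at 6.41, 6.37 and 6.76 in control and 5.38, 5.22 and 4.91 in knockdown arrays, and fell 2.54-fold (-1.34 ± 0.14 SE, limma adjusted p = 0.000229). The spectrin gene SPTAN1 was at 9.48, 9.53 and 9.69 in control and 8.87, 8.91 and 8.61 in knockdown arrays, and fell 1.71-fold (-0.77 ± 0.09 SE, limma adjusted p = 0.000369). PDLIM2 and PDLIM5 fell by 0.59 and 0.26 on the log2 scale (limma adjusted p = 0.00216 and 0.0126), and PDLIM5 no longer passed when knockdown replicate 1 or 3 was left out (limma adjusted p = 0.0653 and 0.0661). LASP1, another nebulin family gene and named after its value was seen, fell by 0.25 (limma adjusted p = 0.0452). LIMA1, the brightest gene that did not pass, was at 0.00 ± 0.07 SE.

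Brush border proteins and myosin partners had the largest share that passed of these lists, 5 up and 5 down of 17 measured from 22 listed, or 58.8% beside 22.5% of all genes, with a median of -0.01. VIL1, the microvillus bundler villin, was at 8.30, 8.29 and 7.99 in control and 9.02, 9.03 and 8.98 in knockdown arrays, and rose 1.76-fold (0.82 ± 0.09 SE, limma adjusted p = 0.000233). PLS1, the bundler plastin 1, rose by 0.38 ± 0.06 on the log2 scale (limma adjusted p = 0.00137). OPTN, optineurin, which links MYO6 to vesicles, was at 7.73, 7.82 and 8.45 in control and 6.59, 6.70 and 6.49 in knockdown arrays, and fell 2.65-fold (-1.41 ± 0.16 SE, limma adjusted p = 0.000379). MLPH, melanophilin, which links class V myosin to RAB27A, fell by 0.37 ± 0.05 (limma adjusted p = 0.000753). TOM1, another adaptor of MYO6, was at -0.02 ± 0.09 SE, and RAB11FIP2, a partner of MYO5B, at -0.01 ± 0.08 SE. USH1C, the brightest that did not pass, was at -0.05 ± 0.14 SE.

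The sarcomere troponins had 4 of 8 genes measured, and 0 passed in limma, beside 22.5% of all genes. An unadjusted p under 0.05, which at least 22.5% of all genes reach, was found for 1. TNNT1, a slow skeletal troponin T, was bright at 9.35, 9.45 and 9.64 in control and 9.27, 9.19 and 9.28 in knockdown arrays. The groups did not overlap, and the difference of -0.23 ± 0.08 SE just missed the threshold (limma adjusted p = 0.0527). It passed in 6 of the 16 alternatives, among them without control replicate 1 or 3, at -0.30 and -0.15 (limma adjusted p = 0.0235 and 0.0433). TNNI1, TNNT3 and TNNC2 were dim, with log2 fold changes of 0.19, 0.12 and 0.08. No troponin rose beside NEB and MYH4.

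**Figure D4:**
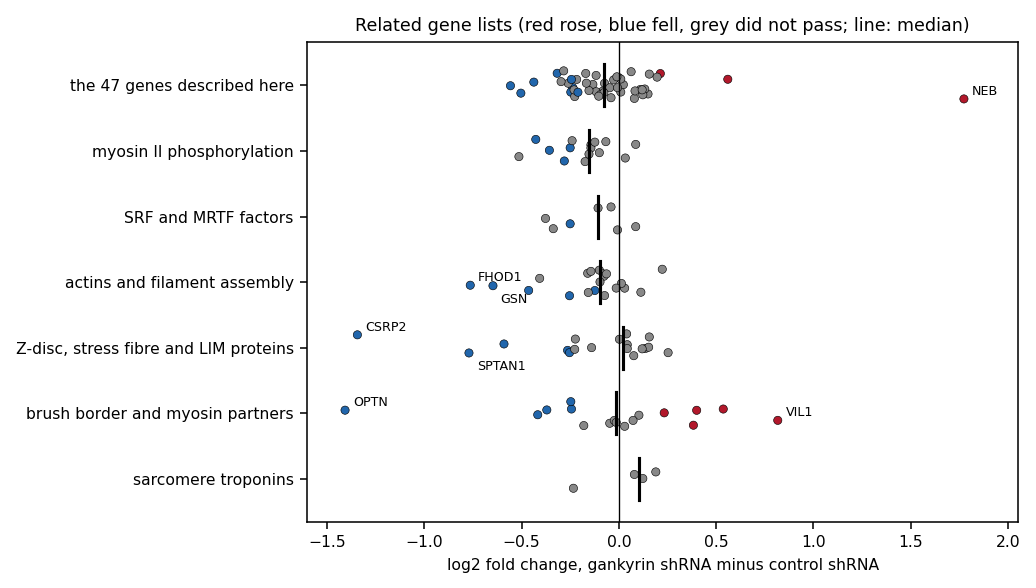
Log2 fold change (x axis, gankyrin shRNA minus control shRNA) of each measured gene in the 47-gene group and in 6 lists of related genes (y axis), spread vertically only for legibility. Red points rose, blue fell and grey did not pass, and the bar is the median, which runs from -0.15 for myosin II phosphorylation to 0.10 for sarcomere troponins.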

How the data were processed

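RNA of SW480 cells was measured on 6 Affymetrix arrays, 3 per group. The deposited values are probe set signals on a log2 scale, as the values show. The submitters' processing notes name MAS5. What it did, and in which version, is not given in the sources used here. No further scaling was applied.

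Control probe sets (62 of 54675) and the lowest 40% by mean signal (limit 3.6) were left out, which kept 32759. Of all probe sets 41091 are paired with 1 gene in GEO's platform annotation, 1801 with several and 11721 with none named here. Symbols were updated by gene ID to RefSeq (GRCh38.p14, 19735 genes matched, 42 kept their older symbol). Each gene was read on its brightest single-gene probe set, which gave 14199 genes. Differences (knockdown minus control) were tested in R 4.3.3 by limma 3.58.1, with lmFit and a trended eBayes. Tests were two-sided, p-values were adjusted by Benjamini-Hochberg across the 14199 genes with 0.05 as the threshold, and the script was tested on simulated data. Probe sets were tested the same way over 27004. Pairs of genes were compared by exact permutation of the 6 arrays, in 20 assignments. The number of arrays limits the precision.

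Genes were named by rule: PSMD10 and NFIL3, members past the threshold, the 2 brightest of each role list, those nearest the limit, and from each related list up to 4 genes past the threshold by smallest p and 1 other by brightness. Other names were chosen after their values were seen: these are the remaining members given with values, RIF1, the other skeletal myosin genes, SRF, ROCK1, LASP1, TOM1 and RAB11FIP2. The members and lists were chosen with earlier results of these data known. The 16 alternatives were other array scalings, filters, probe set choices and variance priors, the replicate number as a block, and each array left out, and 1 of them (recentring over the genes tested) was added after the data were seen. A comparison of protein sequences between members is not given here.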

Additional observations from a re-analysis of the deposited data

How the results depend on the processing

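NEB, MYO1D, MYO5B and MYH4 passed under every alternative in which they were measured, and the other 7 called members lost the call or turned under at least 1. The 11 called members (3 higher, 8 lower) became 6 (4 lower) both with the mean of a gene's probe sets and without the intensity trend. Recentring over the genes tested gave 4 lower members, and 2274 higher calls over all genes against 1154. Leaving out each array in turn gave 5 to 15 called members (2 to 3 higher and 3 to 12 lower), and over all genes 1732 to 4161 calls (613 to 1808 higher and 1071 to 2353 lower); the lowest totals came without a knockdown array and the highest without control replicate 3. With fewer arrays the test has fewer degrees of freedom, and the cause of the other shifts was not tested.

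The labels do not say whether the replicate numbers pair the arrays. Correlations of same-numbered deviations were 0.02, 0.11 and -0.01, and those of differently numbered arrays ran from -0.07 to 0.05. Such low values cannot tell whether the arrays were paired. With the replicate number as a block, 12 members were called, 11 of them the same, with NEBL added (limma adjusted p = 0.0177), and 3049 genes in all. Of the related genes named, the block ended the calls of STK10, RHOB and ELK1 (limma adjusted p = 0.0662, 0.0544 and 0.0578) and added TNNT1 (0.0453). The sign turned with the mean of probe sets for DAPK1 (0.20), RHOB (0.063), ELK1 (0.028) and DIAPH1 (0.016), and with the brightest probe set not marked as cross-matching for MYL6 (0.17); these rest on other probe sets. Of the other values of single named genes, 90 lost the call, 12 gained it and 657 stayed on the same side of the threshold, 29 of these with a turned sign. Signal limits 9 of the 47 genes, MYH4 among them, whose mean lies under the low-end value of 4.84.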
